A study of Mus musculus with 17 samples.

Results

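Interferon response genes are the genes that cells switch on when interferons bind their receptors. A fixed list of 35 of them was followed by symbol, gene by gene, in mouse mammary tumours and normal mammary tissue. Of the 35 genes, 31 had a probe set that carried their symbol alone and were measured, among 19938 genes measured in all. Isg15, Gbp2 and Igtp share their probe set with another gene, and no probe set was found for Ifi44, so these 4 were not analysed here.

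RNA from 12 tumours and 5 normal samples, all of mixed strain background, was hybridised to 17 Affymetrix Mouse Gene 1.0 ST arrays. The 9 Rb/p53 tumours carried deletions of both Rb and p53, the genes of the retinoblastoma protein and of the p53 tumour suppressor. Cre recombinase, which makes the deletion, came from adenovirus in 2 Rb/p53 tumours (Ad-CMVcre, called Ad-Cre here), both labelled as transplants. In the other 7 Rb/p53 tumours MMTV-Cre was used, in which a mouse mammary tumour virus promoter drives Cre. This promoter is active in mammary epithelium and in some other tissues. Of these 7, 5 are labelled as transplants, 1 as from a nulliparous mouse (replicate 1 of the tumours that are not transplants) and 1 as from a parous mouse (replicate 2). In the 3 p53 tumours p53 alone was deleted, also with MMTV-Cre. The 5 normal samples are from animals of the Rb/p53 model, and the labels do not say which alleles these carried or whether Cre was present. The labels describe the tumours as independent and give no ages, transplant hosts or pooling. Separate animals are not stated for the normal samples, and p-values therefore reflect only the spread among the samples at hand. For p53 replicate 3 the labels conflict: the title gives the Rb/p53 model, the other fields p53 deletion, and it was kept with the p53 tumours.

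Type I interferons signal through a receptor made of Ifnar1 and Ifnar2, and a complex that includes Stat2 and Irf9 then binds a DNA element called the ISRE in the promoters of antiviral genes. Interferon gamma signals through Ifngr1 and Ifngr2, and acts on promoters through another element, the GAS. In tumours the same genes include sensors of foreign or displaced nucleic acid, effectors that block translation or viral replication, and the chemokines Cxcl9, Cxcl10 and Cxcl11, which draw T cells and NK cells through the receptor Cxcr3.

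Promoters of the 6 members that passed the test against normal tissue in either tumour genotype are shown, since these genes carry the results. The bases are the 250 before the RefSeq gene start in build GRCm38.p6, 5′ to 3′ on the gene's strand, with capitals marking matches on either strand. The ISRE core was searched as GAAA and GAAA with 2 bases of any kind between them, and the GAS as TTCNNNGAA. Where a gene had more than 1 window, that with the most matches is shown.
Cxcl10 promoter: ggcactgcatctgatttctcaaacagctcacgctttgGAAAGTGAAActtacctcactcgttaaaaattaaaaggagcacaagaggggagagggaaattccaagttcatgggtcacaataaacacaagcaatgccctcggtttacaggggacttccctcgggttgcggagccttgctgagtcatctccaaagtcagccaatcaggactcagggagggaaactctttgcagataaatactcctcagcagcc
Cxcl9 promoter: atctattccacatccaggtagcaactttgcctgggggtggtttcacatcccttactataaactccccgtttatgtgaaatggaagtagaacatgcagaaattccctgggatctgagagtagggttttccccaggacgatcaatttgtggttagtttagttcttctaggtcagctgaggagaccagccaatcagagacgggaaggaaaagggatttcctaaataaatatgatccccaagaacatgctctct
Ifit2 promoter: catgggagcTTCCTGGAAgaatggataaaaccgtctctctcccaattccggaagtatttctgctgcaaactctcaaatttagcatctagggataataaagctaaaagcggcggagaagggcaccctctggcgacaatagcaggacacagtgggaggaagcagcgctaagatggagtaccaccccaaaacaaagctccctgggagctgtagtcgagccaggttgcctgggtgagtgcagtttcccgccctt
Irf1 promoter: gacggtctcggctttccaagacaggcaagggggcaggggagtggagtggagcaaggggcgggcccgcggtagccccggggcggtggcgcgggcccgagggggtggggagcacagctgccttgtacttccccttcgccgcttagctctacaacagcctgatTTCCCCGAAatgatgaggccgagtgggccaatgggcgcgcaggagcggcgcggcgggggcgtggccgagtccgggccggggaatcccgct
Ifit1 promoter: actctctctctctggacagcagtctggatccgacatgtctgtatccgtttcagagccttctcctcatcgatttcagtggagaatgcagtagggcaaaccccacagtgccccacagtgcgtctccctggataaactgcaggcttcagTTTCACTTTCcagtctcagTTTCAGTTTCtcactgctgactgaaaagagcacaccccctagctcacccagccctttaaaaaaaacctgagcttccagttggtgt
Gbp3 promoter: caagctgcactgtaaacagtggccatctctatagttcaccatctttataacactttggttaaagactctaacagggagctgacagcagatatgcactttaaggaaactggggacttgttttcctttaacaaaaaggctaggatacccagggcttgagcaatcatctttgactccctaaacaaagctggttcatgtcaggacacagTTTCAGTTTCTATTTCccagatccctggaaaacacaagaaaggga
The Cxcl10 promoter lies at chr5:92348890-92349139 on the minus strand and holds an ISRE core match at -213 to -204 from the start. The Cxcl9 promoter lies at chr5:92328080-92328329, also on the minus strand, and held no match to either motif. The Ifit2 promoter (chr19:34550444-34550693, plus strand) has a GAS match at -241 to -233. The Irf1 promoter (chr11:53769764-53770013, plus strand) has a GAS match at -90 to -82. The Ifit1 promoter (chr19:34640639-34640888, plus strand) has ISRE core matches at -104 to -95 and at -85 to -76. In the Gbp3 promoter (chr3:142559794-142560043, plus strand) the matches at -45 to -36 and at -39 to -30 overlap.

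RefSeq windows from 250 bases before to 50 after the start were given for 25 of the 35 listed genes. The ISRE core was found in a window of 14 of these 25 genes, against 3.99% of 27025 genes with a window (3.44% of 32851 windows). The 14 were Stat2, Ifih1, Ddx58, Eif2ak2, Isg15, Ifit1, Ifit3, Oas3, Rsad2, Cxcl10, Gbp2, Gbp3, Igtp and Irgm1. The GAS letters were found for 5 of the 25, Irf1, Eif2ak2, Ifit2, Ifi35 and Igtp, against 9.55% of genes (8.3% of windows). A match is a run of letters, not a shown binding site.

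Levels below are RMA values in log2 units, and a fold is the log2 difference of group means with its standard error (SE). A gene passed the test when its p from limma, a linear model fitted across all genes, was below 0.05 after Benjamini-Hochberg adjustment over the 19938 genes. The p53 replicate 2 array correlated with the others at r = 0.888 to 0.915 over all probe sets, while all other pairs reached 0.929 to 0.992. Rb1, as a check of the labels, was 9.54 ± 0.23 over the 9 Rb/p53 tumours, 10.40 ± 0.54 over the 3 p53 tumours and 11.21 ± 0.27 over the 5 normal samples (SD). Its value in p53 replicate 3, the array with conflicting labels, was 10.27, above the highest Rb/p53 tumour (9.92) and below the lowest normal sample (10.93), while p53 replicate 1 stood at 9.93 and replicate 2 within the range of normal tissue. Rb1 passed as lower against normal tissue in Rb/p53 tumours and also in p53 tumours (-0.81, limma adjusted p = 0.0124). Between Rb/p53 and p53 tumours Rb1 did not pass, so the check does not separate these genotypes by test. It passed there without p53 replicate 3 (-0.93, adjusted p = 0.0469) and with all 17 arrays in the fit (-0.86, adjusted p = 0.039). The 25th percentile of probe sets lay between 6.37 and 6.80 across arrays. Among the members, Mx2 was below 6.80 in 4 of 9 Rb/p53 tumours, 2 of 3 p53 tumours and 4 of 5 normal samples, and Mx1 in 1 normal sample, while no other member was that low in any sample. All 8 adipocyte markers fell in both tumour genotypes against normal tissue, as did 7 of 9 luminal and epithelial markers and 5 of 6 basal markers. Of all genes 13.4% fell in Rb/p53 tumours and 12.1% in p53 tumours. The mean of the luminal markers ran from 8.29 to 10.28 in Rb/p53 tumours and from 8.07 to 9.49 in p53 tumours, against 11.18 to 11.40 in normal tissue. In these bulk samples, fewer cells of a type and less RNA per cell cannot be told apart.

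In Rb/p53 tumours the chemokine Cxcl10 rose strongly while its neighbour Cxcl9 fell, and the antiviral genes Ifit2 and Ifit1 and the transcription factor Irf1 rose more modestly. The other 26 members did not pass the test. The question here was how the doubly deleted tumours differ from normal mammary tissue. Of the 31 members 4 rose (12.9%) and 1 fell (3.23%), against 14.2% of all genes that rose and 13.4% that fell, so the share of members that rose was near that of all genes. The folds were positive for 23 members, with a median of 0.33 over the members and 0.03 over all genes. At an unadjusted p below 0.05 there were 9 members (29%). The share of all genes at this unadjusted level is not given here, so the count is not read as an excess.

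**Figure D1:**
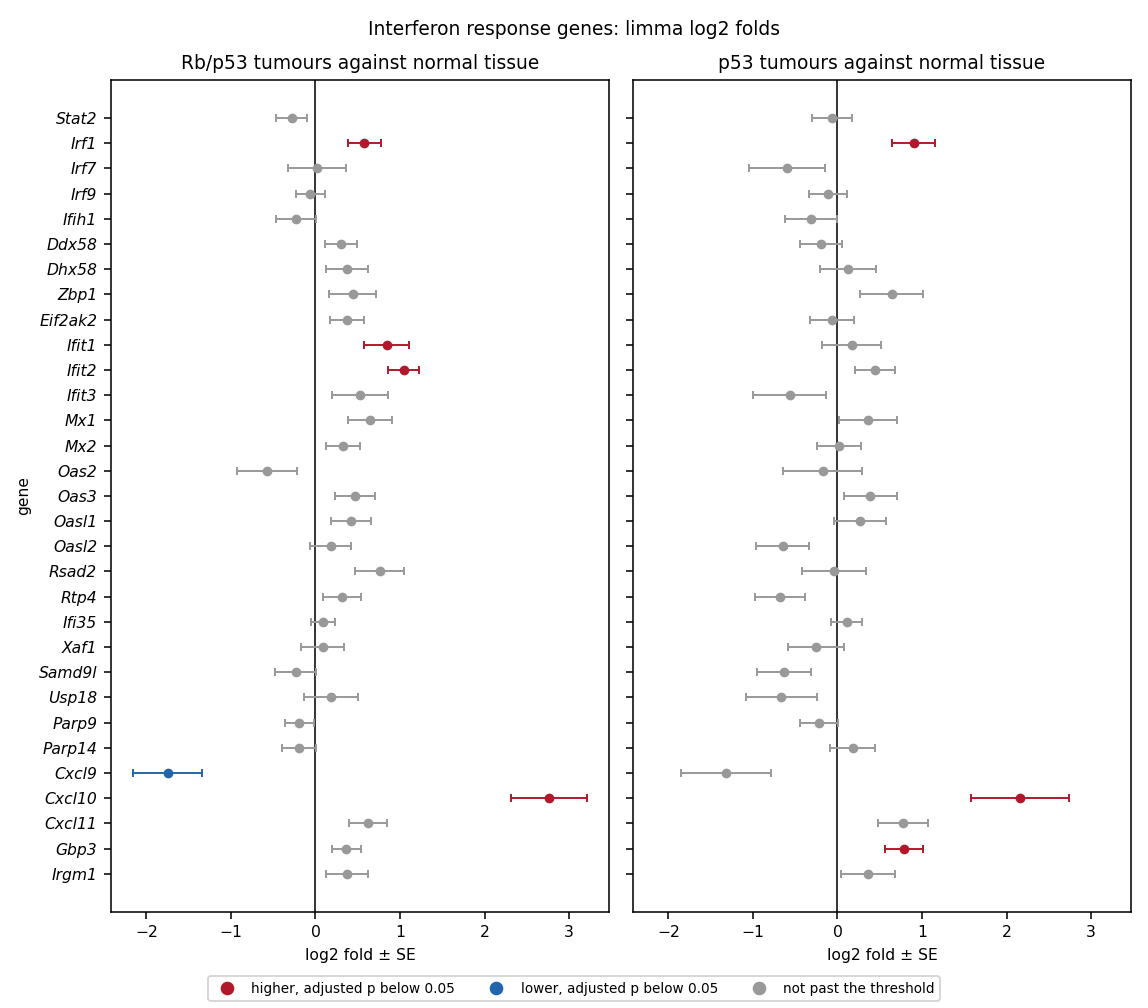
Log2 folds (x axis, with SE as bars) of the 31 measured interferon response genes in Rb/p53 tumours against normal tissue (left) and p53 tumours against normal tissue (right). Red points passed the test as higher and the blue point as lower. Cxcl10 has the highest fold on both sides (2.76 and 2.16) and Cxcl9 the lowest (-1.75 and -1.32), and the Cxcl9 fold on the right did not pass.

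Cxcl10, a Cxcr3 ligand induced by type I interferon, interferon gamma and NF-kB, was 9.58 at the lowest, 10.69 at the median and 12.36 at the highest in Rb/p53 tumours. It was 11.44, 10.65 and 8.85 in p53 tumours, against 8.27, 7.98, 8.21, 8.10 and 8.23 in normal tissue. Every tumour of either genotype lay above every normal sample, and the lowest was p53 replicate 3. The means were 10.92 ± 0.93 in Rb/p53 tumours (SD, n = 9) and 8.16 ± 0.11 in normal tissue (SD, n = 5), a log2 fold of 2.76 ± 0.44 (limma adjusted p = 0.000183). In p53 tumours the mean was 10.32 ± 1.33 (SD, n = 3) and the log2 fold against normal tissue 2.16 ± 0.58 (limma adjusted p = 0.0146). Leaving out p53 replicate 1 lost the call in p53 tumours (1.60, adjusted p = 0.081).

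Cxcl9, a Cxcr3 ligand induced mainly by interferon gamma, was 7.62, 8.65 and 9.84 at the lowest, median and highest in Rb/p53 tumours. It read 10.22, 8.94 and 8.40 in p53 tumours, against 10.39, 10.21, 10.13, 10.96 and 10.81 in normal tissue. All 9 Rb/p53 tumours lay below all 5 normal samples, while p53 replicate 1 lay within the normal range. The means were 8.75 ± 0.90 in Rb/p53 tumours and 10.50 ± 0.37 in normal tissue (SD, n = 9 and 5), a log2 fold of -1.75 ± 0.41 (limma adjusted p = 0.00386). In p53 tumours the fold was -1.32 ± 0.53 and did not pass (limma adjusted p = 0.0877). It passed without p53 replicate 1 (-1.84, adjusted p = 0.0342).

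Cxcl11, the other Cxcr3 ligand of the trio, ran from 7.32 to 8.21 in Rb/p53 tumours. It read 9.08, 7.52 and 7.50 in p53 tumours, against 7.48, 7.13, 7.21, 7.41 and 7.08 in normal tissue. All p53 tumours lay above all normal samples, though replicates 2 and 3 by a narrow margin, and 2 Rb/p53 tumours (both at 7.32) lay within the normal range. The log2 folds were 0.62 ± 0.23 in Rb/p53 tumours (limma adjusted p = 0.0503) and 0.77 ± 0.30 in p53 tumours (limma adjusted p = 0.0745). The first lies at the threshold and passed under several other settings, such as without MMTV-Cre transplant replicate 2 (0.69, adjusted p = 0.03). The second also passed under some settings, such as without p53 replicate 2 (1.03, adjusted p = 0.0327) or 3 (1.04, adjusted p = 0.0272). Its fold ran from 0.25 to 1.82 over the fits run.

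**Figure D2:**
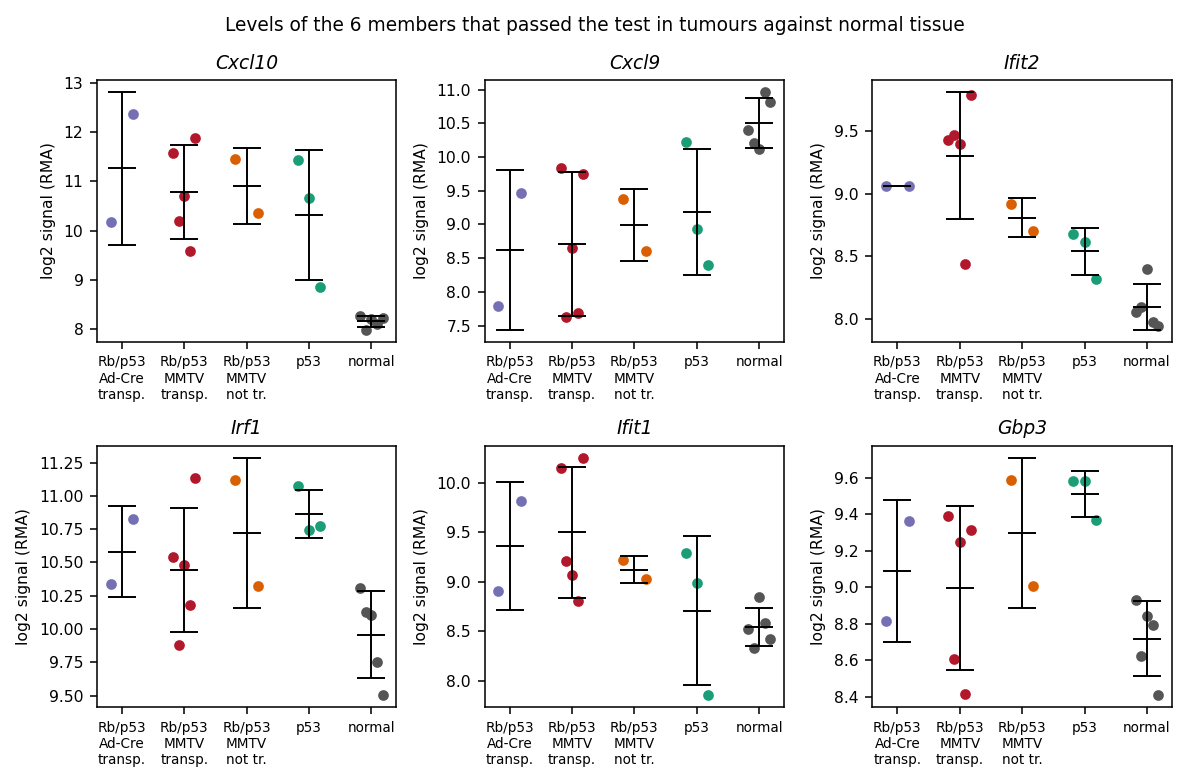
Log2 signal (y axis) of the 6 members that passed the test in tumours against normal tissue, with 1 point per sample and bars for the group mean and SD. Groups are Rb/p53 Ad-Cre transplants (n = 2), Rb/p53 MMTV-Cre transplants (n = 5), Rb/p53 MMTV-Cre tumours that are not transplants (n = 2), p53 tumours (n = 3) and normal tissue (n = 5). Each Cxcl10 point of a tumour lies above the normal samples, which sit between 7.98 and 8.27.

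Among the antiviral effectors, Ifit1, Ifit2 and Ifit3 encode proteins that bind foreign RNA or its translation machinery. Ifit2 was 8.44, 9.06 and 9.78 at the lowest, median and highest in Rb/p53 tumours, against 8.06, 8.09, 8.40, 7.98 and 7.94 in normal tissue. The groups did not overlap, though the lowest tumour, MMTV-Cre transplant replicate 4, was level with the highest normal sample within 0.1. The log2 fold was 1.04 ± 0.18 (limma adjusted p = 0.000339). Ifit1 was 8.81, 9.21 and 10.25 in Rb/p53 tumours, against 8.53, 8.34, 8.84, 8.58 and 8.43 in normal tissue, and overlapped in 1 tumour. Its log2 fold of 0.84 ± 0.27 passed (limma adjusted p = 0.025), but not without normal replicate 1, 2 or 5 (0.79 to 0.84, adjusted p = 0.0527 to 0.0628). With p53 replicate 3 counted among the Rb/p53 tumours, as its title has it, the Ifit1 call was lost too (0.69, adjusted p = 0.0897). Ifit3 had a log2 fold of 0.53 ± 0.33 and did not pass (limma adjusted p = 0.277): it ran from 9.04 to 11.37 in Rb/p53 tumours, a range that spans all normal samples.

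Of the 14 measured antiviral effectors 2 rose (14.3%, against 14.2% of all genes) and 0 fell in Rb/p53 tumours. A positive fold was found for 12 of them, against 56.1% of all genes, and the median fold was 0.37. Rsad2 (viperin, which makes a chain-terminating nucleotide) had 8.66, 9.55 and 10.56 at the lowest, median and highest in Rb/p53 tumours, against 8.84, 8.78, 8.86, 8.78 and 8.36 in normal tissue. Its log2 fold of 0.76 ± 0.29 did not pass (limma adjusted p = 0.0613), and it passed without p53 replicate 2 (0.76, adjusted p = 0.0339). Mx1, a dynamin-like GTPase against influenza virus, had a fold of 0.64 ± 0.26 (adjusted p = 0.0786), and its relative Mx2 0.33 ± 0.20 at a level near the 25th percentile of probe sets. The 2′-5′ oligoadenylate synthetase Oas3 had a fold of 0.47 ± 0.24 and its relative Oas2 -0.57 ± 0.36, and neither passed. Oas2 read below the lowest normal sample (9.06) in 6 of 9 Rb/p53 tumours. The Oas-like genes Oasl1 and Oasl2 had folds of 0.42 ± 0.23 and 0.18 ± 0.24. Rtp4, Ifi35, Xaf1 and Samd9l ranged from -0.23 to 0.31.

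Irf1, a transcription factor that interferon gamma induces and that drives antigen presentation genes, was 9.88, 10.48 and 11.14 at the lowest, median and highest in Rb/p53 tumours. It read 11.07, 10.75 and 10.77 in p53 tumours, against 10.31, 10.13, 10.10, 9.75 and 9.50 in normal tissue. All p53 tumours lay above all normal samples, whereas Rb/p53 tumours overlapped them. The log2 fold was 0.58 ± 0.19 in Rb/p53 tumours (limma adjusted p = 0.0353) and 0.90 ± 0.26 in p53 tumours (limma adjusted p = 0.0189). A second probe set of Irf1 went the other way without passing, with folds of -0.07 ± 0.14 in Rb/p53 tumours and -0.29 ± 0.19 in p53 tumours, and both calls were lost with the mean of the probe sets (0.25 and 0.31). The Rb/p53 call was also lost after quantile or cyclic loess normalisation (0.50 and 0.43). It was lost as well when the tumour of the nulliparous mouse, MMTV-Cre transplant replicate 5, Ad-Cre replicate 2 or normal replicate 4 or 5 was left out (0.46 to 0.54). The call in p53 tumours was lost when p53 replicate 1 was left out (0.80, adjusted p = 0.0679).

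The other transcription factors did not pass in either genotype. Stat2 and Irf9, which bind the ISRE together, had folds of -0.28 ± 0.18 and -0.06 ± 0.17 in Rb/p53 tumours. Irf7, which amplifies type I interferon production, had a fold of 0.02 ± 0.34 but ran from 8.84 to 11.15 across Rb/p53 tumours, against 9.50 to 10.31 in normal tissue. Of the 5 nucleic acid sensors 0 passed in Rb/p53 tumours. Their folds ran from -0.23 ± 0.24 for Ifih1 (MDA5, a sensor of long double-stranded RNA) to 0.44 ± 0.28 for Zbp1, a sensor of Z-form nucleic acid. The kinase Eif2ak2 (PKR), which halts translation, lay at 0.37 ± 0.20. Ddx58 (RIG-I) and Dhx58 (LGP2) lay at 0.30 ± 0.19 and 0.38 ± 0.25. The regulators Usp18, which removes Isg15 from proteins and damps the receptor, and the ADP-ribosyltransferase relatives Parp9 and Parp14 had folds between -0.19 and 0.18.

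Gbp3, a guanylate-binding protein of the GTPases that attack microbe-containing vacuoles, was the third member to pass in p53 tumours. It read 9.58, 9.58 and 9.37 there, against 8.93, 8.62, 8.84, 8.79 and 8.41 in normal tissue, without overlap. The log2 fold was 0.79 ± 0.22 (limma adjusted p = 0.0197), which no longer passed when p53 replicate 1 (0.76, adjusted p = 0.0557) or replicate 2 (0.76, adjusted p = 0.0523) was left out. In Rb/p53 tumours Gbp3 ran from 8.42 to 9.59 and its fold of 0.36 ± 0.17 did not pass (adjusted p = 0.133). Irgm1, a GTPase of the same defence, had folds of 0.37 ± 0.25 in Rb/p53 tumours and 0.36 ± 0.32 in p53 tumours.

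In p53 tumours, set against the same normal samples, Irf1, Cxcl10 and Gbp3 rose and no member fell. That is 3 of 31 members (9.68%), against 8.34% of all genes that rose and 12.1% that fell. At an unadjusted p below 0.05 there were 6 members (19.4%), a count without the share of all genes beside it and not read as an excess. Of 31 folds 15 were positive, with a median of -0.04 (0.09 over all genes). Irf1, Cxcl10, Cxcl11 and Gbp3 lay above all normal samples in all 3 p53 tumours, where 9.87% of all genes did so. Oasl2 and Rtp4, a chaperone of cell surface receptors, lay below all normal samples in all 3, where 13.5% of all genes did so. In Rb/p53 tumours only Ifit2 and Cxcl10 lay above all normal samples in all 9 (7.9% of all genes) and only Cxcl9 below (8.31% of all genes).

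Several antiviral genes had folds of opposite sign in the 2 genotypes against the shared normal samples. Oasl2 had 0.18 ± 0.24 in Rb/p53 tumours and -0.65 ± 0.31 in p53 tumours, Rtp4 0.31 ± 0.23 and -0.68 ± 0.30, and Ifit3 0.53 ± 0.33 and -0.56 ± 0.43. None of these folds passed. With only the p53 tumours and normal tissue in the fit, Oasl2 and Rtp4 passed as lower in p53 tumours (adjusted p = 0.00946 and 0.0227), the only 1 of 29 alternatives in which either did. The direct test of the genotypes follows.

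Between Rb/p53 and p53 tumours no member passed the test. The question was how tumours with both deletions differ from those with p53 deletion alone. Here limma called 0 of 31 members, as it called only 0.00502% of all genes. Rb1 itself did not pass here either. Of the 9 Rb/p53 tumours 7 are labelled as transplants, 2 of them Ad-Cre. The p53 tumours are MMTV-Cre and are not grouped as transplants. The comparison therefore does not separate Rb deletion from transplantation or from the route of Cre delivery. At an unadjusted p below 0.05 there were 4 members (12.9%), against 20.6% of all genes. These were Ifit2, Ifit3, Oasl2 and Rtp4, each higher in Rb/p53 tumours. Rtp4 was 9.53, 10.12 and 11.02 at the lowest, median and highest in Rb/p53 tumours, against 9.41, 9.43 and 9.04 in p53 tumours, without overlap, and its log2 fold was 0.99 ± 0.30 (limma adjusted p = 0.158). Oasl2 was 10.29 at the lowest and 11.93 at the highest in Rb/p53 tumours, against 10.25, 10.17 and 10.09 in p53 tumours. It too was without overlap, though by a narrow margin, and its fold was 0.83 ± 0.33 (limma adjusted p = 0.205). The share of all genes without overlap between these groups is not given here, so the separation of Rtp4 and Oasl2 is not read as particular to them. Ifit3 had a fold of 1.09 ± 0.44 (adjusted p = 0.213) with overlapping groups. In the 2 Rb/p53 tumours that are not transplants, Ifit3 averaged 9.45 and Ifit2 8.81. The MMTV-Cre Rb/p53 transplants averaged 10.56 and 9.30, and the p53 tumours 9.15 and 8.54. In the same order of groups, Oasl2 averaged 10.68, 11.13 and 10.17, and Rtp4 10.31, 10.22 and 9.30. The part of transplantation in these genotype folds was not tested. The median fold was 0.25 over the members and -0.03 over all genes.

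The interferon response genes varied widely from tumour to tumour. Each of the 31 members had a larger SD over the 9 Rb/p53 tumours than over the 5 normal samples, as did 65.6% of all genes. The median SD of the members was 0.54 in Rb/p53 tumours and 0.21 in normal tissue, while over all genes it was 0.19 and 0.15. Within the 5 MMTV-Cre transplants alone 30 of 31 members had the larger SD (54.7% of all genes), with a median SD of 0.62. In p53 tumours it was 22 of 31 members, against 80.8% of all genes, over only 3 arrays that include replicate 2 with its narrower distribution. Cxcl10, Cxcl9, Ifit3, Irf7, Usp18 and Oas2 had the largest SDs in Rb/p53 tumours, from 0.73 to 0.93.

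**Figure D3:**
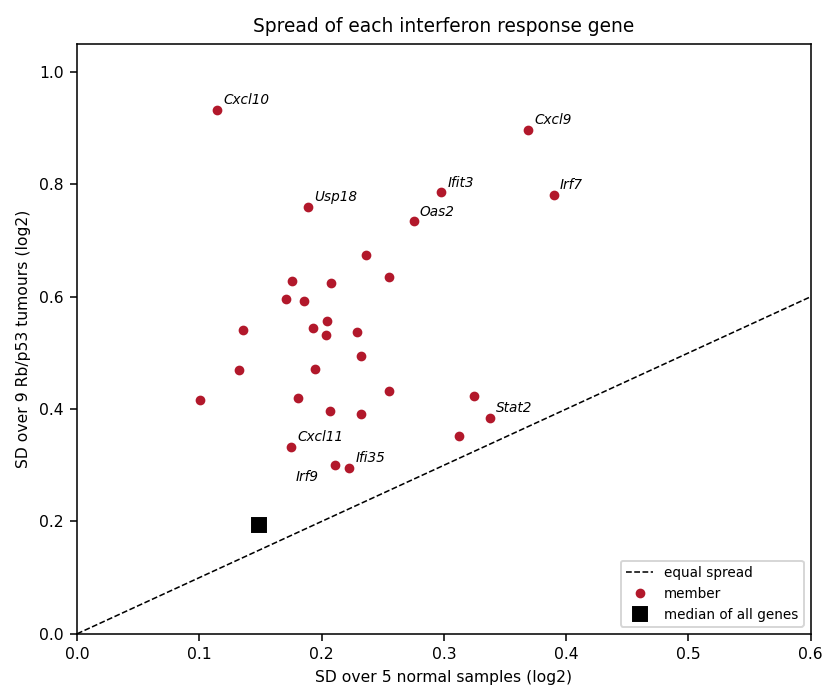
SD of each of the 31 members over 9 Rb/p53 tumours (y axis, log2) against its SD over 5 normal samples (x axis, log2); the square is the median of all genes and the dashed line marks equal spread. All 31 members lie above the line, with Cxcl10 highest at 0.93 against 0.11.

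The variation ran in the same tumours for most members. MMTV-Cre transplant replicate 5 had the highest value of the 9 Rb/p53 tumours for 13 members and transplant replicate 1 for 9. Ad-Cre replicate 2 was highest for 5 and the tumour of the nulliparous mouse for 4. At the other end, MMTV-Cre transplant replicate 2 was lowest for 13 members, Ad-Cre replicate 1 for 8, MMTV-Cre transplant replicate 4 for 7 and the tumour of the parous mouse for 3. High and low tumours thus stood within the Ad-Cre pair, within the transplants and within the pair of tumours that were not transplants. The median difference of a tumour's members from the normal mean was 0.93, 0.83 and 0.64 in transplant replicates 5 and 1 and Ad-Cre replicate 2, and -0.26, -0.22 and -0.18 in transplant replicates 2 and 4 and Ad-Cre replicate 1.

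**Figure D4:**
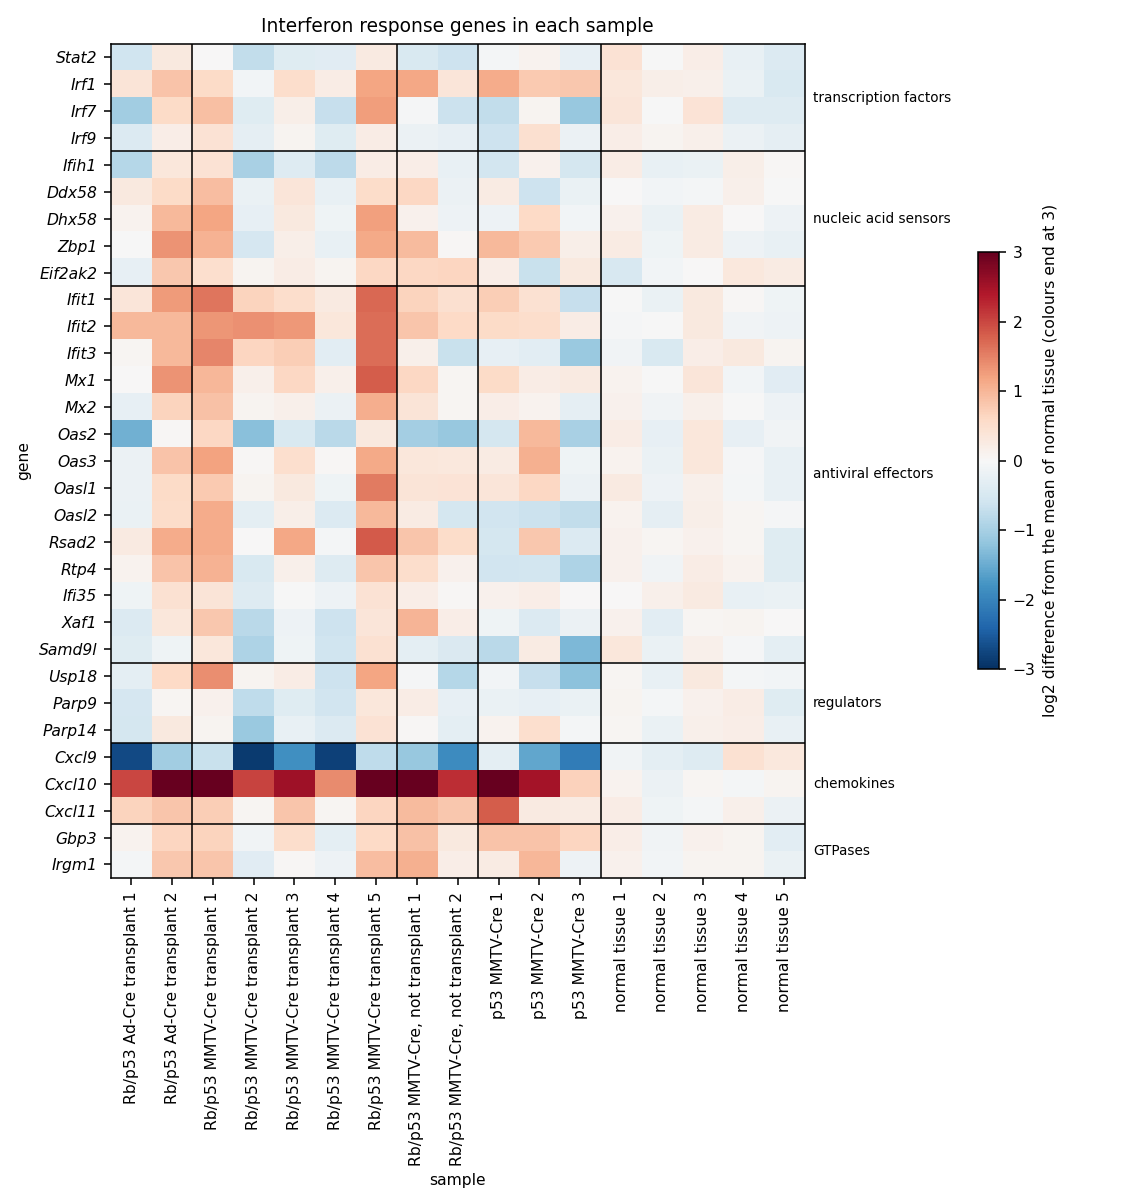
Log2 difference of each measured interferon response gene (rows, ordered by role) from the mean of the 5 normal samples, in each of the 17 samples (columns); red is higher and blue lower, and colours end at 3. Columns of Ad-Cre replicate 2 and MMTV-Cre transplants 1 and 5 are mostly red, Cxcl10 is red in all 12 tumours and Cxcl9 blue in all 12.

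Set against the range of the 5 normal samples, 28 of 31 members lay above it in MMTV-Cre transplant replicate 5, 27 in replicate 1 and 25 in Ad-Cre replicate 2. In each of these 3 tumours 1 member lay below, which was Cxcl9. The counts above were 14, 4 and 2 in MMTV-Cre transplant replicates 3, 2 and 4, 7 in Ad-Cre replicate 1, and 17 and 11 in the tumours of the nulliparous and the parous mouse. In MMTV-Cre transplant replicates 2 and 4 the members below the range numbered 15 and 14, and in Ad-Cre replicate 1 they numbered 12. Over all genes the share above ran only from 29.7% to 43.1% and the share below from 23.7% to 35.7% across the 12 tumours, both highest in p53 replicate 2. The p53 tumours had 12, 15 and 4 members above and 8, 7 and 13 below, and p53 replicate 3 was the lowest of the 3 for 21 members.

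**Figure D5:**
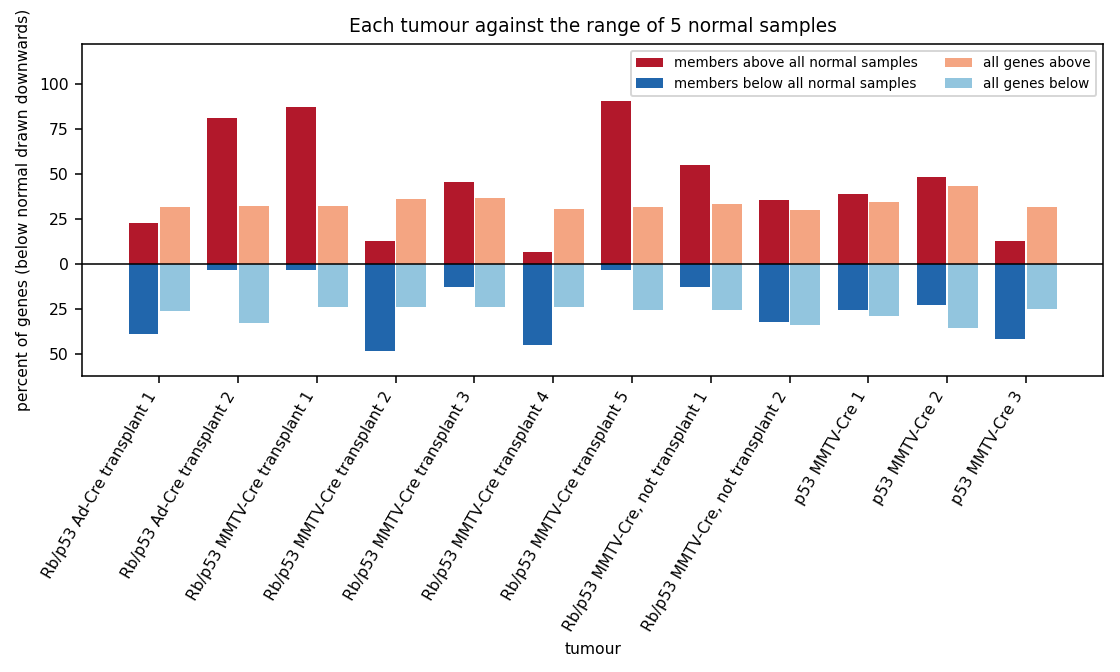
Percent of the 31 members (dark bars) and of all genes (pale bars) that lay above all 5 normal samples (upwards) or below all of them (downwards, read as positive percent) in each of the 12 tumours. The member bars range from 2 to 28 of 31 genes above, while the bars of all genes stay between 29.7% and 43.1%.

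Usp18 and Zbp1 show the pattern in single genes. Usp18 read 9.48 and 10.36 in the Ad-Cre tumours, 11.16, 9.85, 9.98, 9.15 and 10.94 in MMTV-Cre transplants 1 to 5 and 9.73 and 8.91 in the tumours that were not transplants, against 9.56 to 10.05 in normal tissue. The tumours therefore lay on both sides of the normal range, and the fold was 0.18 ± 0.32. Zbp1 read 9.23 and 10.59 in the Ad-Cre tumours and 10.27, 8.75, 9.42, 9.02 and 10.37 in the MMTV-Cre transplants. For Zbp1 too the Ad-Cre tumours differed from each other by more than the normal samples, which ran from 9.02 to 9.50.

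Markers of immune cells were read beside these values. The mean of 13 macrophage markers was highest in MMTV-Cre transplant replicate 5 (11.53), Ad-Cre replicate 2 (11.33) and the tumour of the nulliparous mouse (11.21), and lowest in MMTV-Cre transplant replicate 2 (10.38) and Ad-Cre replicate 1 (10.54). MMTV-Cre transplant replicates 1 and 4, far apart in the members, were nearly level here (10.91 and 10.89). Transplant replicate 3 stood at 10.88 and the tumour of the parous mouse at 10.76. It was 10.98, 12.41 and 11.78 in p53 tumours, against 10.05 to 10.49 in normal tissue. Of the 13, 6 rose and 1 fell in Rb/p53 tumours, and 11 rose in p53 tumours. The mean of 15 T and NK cell markers was highest in MMTV-Cre transplant replicate 1 (7.81) and Ad-Cre replicates 2 and 1 (7.74 and 7.56), and ran from 7.03 to 7.32 in the other 6 Rb/p53 tumours. It ran from 7.21 to 7.91 in p53 tumours, against 7.44 to 7.68 in normal tissue. Of the 15, 2 rose and 5 fell in Rb/p53 tumours, and 2 rose in p53 tumours. Among them Cd3d lay below the 25th percentile of probe sets in every sample. Of 7 neutrophil markers 6 rose in Rb/p53 tumours and 4 in p53 tumours. Of 8 dendritic cell markers 1 rose and 4 fell in Rb/p53 tumours, and 1 rose in p53 tumours. Of 7 B and plasma cell markers 1 rose and 4 fell in Rb/p53 tumours, and 2 fell in p53 tumours. Of all genes 14.2% rose and 13.4% fell in Rb/p53 tumours, and 8.34% rose and 12.1% fell in p53 tumours. The part of these cells in the interferon response genes was not tested.

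The route of Cre delivery and transplantation gave no call among the members. Between Ad-Cre and MMTV-Cre Rb/p53 tumours limma called 0 of 31 members, against 0.00502% of all genes, and 0 at an unadjusted p below 0.05, against 2.07% of all genes. The median fold was -0.02 over the members as over all genes. Cxcl10 read 10.17 and 12.36 in the Ad-Cre tumours, 1 within and 1 above the MMTV-Cre range of 9.58 to 11.88, with a fold of 0.45 ± 0.76. Both Ad-Cre tumours are transplants, while 2 of the 7 MMTV-Cre tumours are not. The test therefore does not fully separate the route of Cre from transplantation. With transplants only on both sides, 0 members were called as well. Between transplanted and other MMTV-Cre Rb/p53 tumours limma called 0 of 31 members, against 0.0251% of all genes, and 0 at an unadjusted p below 0.05, against 7.92% of all genes. Folds ran from -0.69 ± 0.47 for Xaf1, a binder of the apoptosis inhibitor XIAP, to 1.10 ± 0.53 for Ifit3, with a median of 0.11. Both comparisons rest on 2 tumours on 1 side, which limits their precision.

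Beyond the listed members, 74 further genes of the pathway were followed, of which 65 had values. In Rb/p53 tumours 13 rose and 8 fell against normal tissue (20% and 12.3%, against 14.2% and 13.4% of all genes). In p53 tumours 11 rose and 6 fell (16.9% and 9.23%, against 8.34% and 12.1% of all genes). Of 7 measured interferon genes 1 fell in Rb/p53 tumours and 1 rose in p53 tumours. The first was Ifnl2, an interferon lambda, at 8.78 ± 0.12 in Rb/p53 tumours and 9.13 ± 0.13 in normal tissue (log2 fold -0.36 ± 0.09, limma adjusted p = 0.00514). The second was Ifna2, an interferon alpha, at 7.36 ± 0.40 in p53 tumours and 6.89 ± 0.15 in normal tissue (0.47 ± 0.15, adjusted p = 0.0334), a call lost when p53 replicate 1 (0.47) or 2 (0.27) or normal replicate 2 (0.42) or 3 (0.44) was left out, and when the Rb/p53 arrays stayed out of the fit (adjusted p = 0.128). Ifnb1 and Ifng did not pass in either genotype. Ifnb1 averaged 6.11 ± 0.18 in Rb/p53 tumours and 6.22 ± 0.37 in p53 tumours, against 6.13 ± 0.06 in normal tissue, with every sample below 6.80, the highest 25th percentile of an array. Ifng averaged 7.32 ± 0.08 in Rb/p53 tumours and 7.34 ± 0.32 in p53 tumours, against 7.32 ± 0.12 in normal tissue (SD, n = 9, 3 and 5). The p53 replicate 2 array read highest of all 17 for Ifna2 (7.77), Ifnb1 (6.60) and Ifng (7.70), but not for Ifnl2 (9.16). This array had the narrowest distribution, with an interquartile range of 2.39, against 2.91 to 3.18 in the others.

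Of the receptor chains, Ifnar1 rose in Rb/p53 tumours (0.47 ± 0.10, limma adjusted p = 0.00263) and in p53 tumours (0.53 ± 0.13, adjusted p = 0.00944). Ifnlr1, the chain specific to interferon lambda, fell in both genotypes: it averaged 7.40 ± 0.21 in Rb/p53 tumours and 7.27 ± 0.13 in p53 tumours, against 8.17 ± 0.21 in normal tissue. Its folds were -0.77 ± 0.11 (adjusted p = 7.32e-05) and -0.90 ± 0.15 (adjusted p = 0.000352). Every tumour lay below every normal sample, though the highest tumour (7.8714, MMTV-Cre transplant replicate 1) was nearly level with normal replicate 5 (7.8786). Ifngr2 rose in Rb/p53 tumours (0.37 ± 0.12, adjusted p = 0.0326), a call lost under 11 of 31 alternatives, among them MMTV-Cre transplant replicate 1 or 5, Ad-Cre replicate 1 or normal replicate 1, 2 or 5 left out (0.34 to 0.37). It had a fold of 0.34 ± 0.16 in p53 tumours without passing (adjusted p = 0.148). Ifnar2 and Ifngr1 did not pass in either genotype, with folds of -0.03 ± 0.12 and -0.14 ± 0.18 in Rb/p53 tumours and -0.24 ± 0.16 and 0.18 ± 0.23 in p53 tumours. Il10rb, the shared chain of the interferon lambda receptor, did not pass either, with folds of 0.24 ± 0.22 in Rb/p53 tumours and 0.54 ± 0.28 in p53 tumours.

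The largest changes of the further genes in Rb/p53 tumours went both ways. Socs3, an inhibitor of JAK-STAT signalling, averaged 9.85 ± 0.56 in Rb/p53 tumours and 8.43 ± 0.16 in normal tissue (SD, n = 9 and 5), with a log2 fold of 1.41 ± 0.24 (limma adjusted p = 0.000272). Sting1, the adaptor through which cyclic dinucleotides induce interferon, rose by 1.02 ± 0.18 (adjusted p = 0.000345). Slfn5, a Schlafen family gene, averaged 9.24 ± 0.48 in Rb/p53 tumours and 10.90 ± 0.20 in normal tissue, with a fold of -1.66 ± 0.20 (adjusted p = 8.99e-06). Ifi27, an interferon-induced gene, had a fold of -1.21 ± 0.16 (adjusted p = 2.97e-05). These changes were not particular to Rb/p53 tumours. Socs3 and Sting1 also passed as higher, and Ifi27 as lower, in p53 tumours against normal tissue. Over the fits run, their folds there ranged from 1.06 to 1.87, from 1.10 to 1.36 and from -1.71 to -1.05.

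In p53 tumours the largest were Slfn2 (1.83 ± 0.40, limma adjusted p = 0.00392), Slfn5 (-1.59 ± 0.26, adjusted p = 0.000367), the endosomal RNA receptor Tlr7 (1.57 ± 0.50, adjusted p = 0.0367) and Irf8, a myeloid transcription factor (1.52 ± 0.33, adjusted p = 0.00308). Tlr7 read from 8.91 to 12.28 across the 3 p53 tumours, against 8.38 to 9.01 in normal tissue. The highest was replicate 2, without which the fold was 0.56 and did not pass (adjusted p = 0.194); the call was also lost without normal replicate 2, 3, 4 or 5 (adjusted p = 0.0578 to 0.072). Between the genotypes 0 of the 65 further genes were called and 15 had an unadjusted p below 0.05 (23.1%, against 20.6% of all genes). Irf8 passed as lower in Rb/p53 tumours under 3 of 26 alternatives. These were p53 replicate 3 left out (-1.48, limma adjusted p = 0.0389), placed with the Rb/p53 tumours (-1.41, 0.0372), and all 17 arrays in the fit (-1.23, 0.0453). Ifna2 passed as lower under 2 of 26, with that replicate left out (-0.63, limma adjusted p = 0.0297) or so placed (-0.62, 0.0204). Between Ad-Cre and MMTV-Cre tumours 0 of the 65 were called and 2 had an unadjusted p below 0.05 (3.08%, against 2.07% of all genes). Between transplanted and other tumours 0 were called and 5 had an unadjusted p below 0.05 (7.69%, against 7.92% of all genes).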

How the data were processed

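The deposited series matrix holds log2 values of 17 arrays, made by RMA (background correction, normalisation and probe summary) in Partek 5.6, per the submitters' processing notes. The genome build and further settings: not given in the sources used here. It lists 35556 probe sets with 0 missing values, and 0 array columns were left unmapped. The authors' values were used as deposited. By the platform annotation 21789 probe sets had a single symbol, of which 21698 matched the RefSeq gene table by Entrez ID; 1621 had several symbols and 12146 had none here. The probe set with the highest mean was kept for each symbol (1851 dropped), which left 19938 genes.

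Members and lists were chosen with earlier results of these data known. Other pathway genes are named if among the 4 largest called changes of a comparison, beside Ifnb1, Ifng, Ifnar1, Ifnar2, Ifngr1 and Ifngr2, which are named in any case; Ifnl2, Ifna2, Ifnlr1, Il10rb, the opposite-sign genes, Usp18 and Zbp1 were picked after their values were seen.

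Genes were tested with limma 3.58.1 (lmFit and eBayes, two-sided) in R 4.3.3, adjusted by Benjamini-Hochberg over all genes at a threshold of 0.05. Tumour against normal tissue used all 17 arrays as 3 groups, Rb/p53 against p53 the 12 tumour arrays, Ad-Cre against MMTV-Cre these 12 as 3 groups, and transplanted against other tumours 7 arrays. The number of arrays limits the precision, and no scan date or other batch label was given. The code was tested on simulated data. Alternatives were eBayes with trend, array weights, a filter below the 25th percentile, quantile and cyclic loess normalisation, the mean of a gene's probe sets, a fit on every probe set, a fold minimum of 1, other sets of arrays, p53 replicate 3 placed with the Rb/p53 tumours, and each array left out. Chosen after seeing the data were leaving out p53 replicate 2 with replicate 3 moved, and leaving out both; a lone remaining sample is assumed to vary as the other groups do.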

Additional observations from a re-analysis of the deposited data

Results flagged for a closer look

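Of 93 pairs of a member and a group (the 9 Rb/p53 tumours, the 5 MMTV-Cre transplants among them, and the 5 normal samples), 3 held a sample far from the others by Dixon's test, and chance alone flags about 1 in 20. Ifit2 in MMTV-Cre transplant replicate 4 was 8.44, with the nearest other transplant at 9.40. Rsad2 in normal replicate 5 was 8.36, with the nearest other normal sample at 8.78. Xaf1 in normal replicate 2 was 9.08, with the nearest other normal sample at 9.41.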

How the results depend on the processing

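No paired analysis was possible because the labels give no replicate numbers that the groups share. In Rb/p53 tumours against normal tissue, where 5 members passed, the count was 8 (7 higher, 1 lower) with array weights, 3 with a fold of at least 1 and 1 (Cxcl10) with only the tumours not labelled as transplants. With 1 array left out it ran from 3 (without normal replicate 5) to 8 (without MMTV-Cre transplant replicate 4). In p53 tumours against normal tissue, where 3 passed, the count was 5 with array weights, 1 with a fold of at least 1 and 6 (3 higher, 3 lower) with only the arrays compared. With 1 array left out it ran from 1 (without p53 replicate 1, when only Cxcl9 passed, as lower) to 4. Elsewhere these 2 counts stayed within 1.5 times. The other 3 comparisons had 0 members called under every alternative run. Among single members 31 calls were lost, 32 were gained and 0 turned direction; the cause was not tested. Of the further pathway genes, Ifngr2 turned direction when Rb/p53 tumours labelled as transplants were left out (-0.00066, against 0.37 with all); the cause was not tested. The median fold of the members was 0.33, 0.31 and 0.24 in Rb/p53 tumours against normal tissue as deposited, after quantile and after cyclic loess normalisation. The depth of arrays is not counted; Mx2 lay near background.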
